A study of Rattus norvegicus with 15 samples.

Results

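The 7 genes followed here code for secreted proteins of the extracellular matrix, measured in cultures of H9c2, a myoblast line from embryonic rat heart, with periostin (Postn) set beside thrombospondin 1 (Thbs1), thrombospondin 2 (Thbs2), osteonectin (Sparc), tenascin C (Tnc), osteopontin (Spp1) and fibronectin (Fn1). They are the rows of the deposited count table with 1 of these symbols, and all 7 listed symbols were found among its 11574 genes. The members were chosen by name with earlier results of these data known, and the value the rule itself used was presence in that table, which a gene entered when its counts summed over the 15 libraries exceeded 20, and the members' sums ran from 440 for Tnc through 1072 for Thbs2, 1306 for Spp1, 5355 for Postn, 33299 for Thbs1 and 39975 for Sparc to 93223 for Fn1. The cells were wild type, came from 1 established line by the sample titles (the separate cell line label carries a number that rises from sample to sample, which was read as a filling error), and were grown in medium with 10% fetal bovine serum. T0 cultures were harvested the day after seeding, and the other groups were then kept in 1% serum until day 7 or day 14, without (T7-RA, T14-RA) or with (T7+RA, T14+RA) daily all-trans retinoic acid (RA) at 1 µM. Each of the 5 groups held 3 cultures. RA was dissolved in DMSO, and whether the cultures without RA received DMSO is not given in the sources used here.

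Matricellular proteins are secreted into the matrix, where they bind collagens, growth factors and cell surface receptors and so modulate adhesion more than they bear load. Periostin is known from fibroblasts, valve cells and the periosteum, binds collagen and integrins, and is raised in injured heart. Thrombospondins bind the receptors Cd36 and Cd47, tenascin C weakens adhesion in developing and healing tissue, Sparc binds collagen, osteopontin binds integrins and Cd44, and fibronectin is the fibrillar scaffold on which several of them assemble. RA acts through nuclear receptors that bind pairs of a short DNA motif.

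The bases just before the start of transcription are shown for the members present in the RefSeq promoter table (assembly GRCr8), since the members moved in different directions and the core promoter is where they can be compared letter by letter. Each window spans the bases from 45 to 16 before the start site in that table, read 5′ to 3′ on the gene's strand, and capitals mark the exact TATA box letters TATAAA.
Postn, chr2:140678016-140678045, plus strand: cTATAAAttcagctctctagaacacaggcc
Thbs1, chr3:125510205-125510234, plus strand: aatgcgggagcctctttaaaaggtccaggg
Sparc, chr10:40038832-40038861, minus strand: taaacccctccacattcctgcagcccttca
Tnc, chr5:82476147-82476176, minus strand: gaggaaggagctccctatataagccagcca
Spp1, chr14:5619820-5619849, minus strand: gttggtggagaccgtctgaaacagcgttta
Of these 5 windows, that of Postn held these exact letters and the other 4 did not, and other TATA-like letters, such as the run of alternating t and a in the Tnc window, were not searched for. The start sites of the table lay 287, 66 and 891 bases inside the RefSeq gene spans of Postn, Tnc and Spp1, so the windows of those genes describe 1 start site among possible others. In the whole promoter entries (250 bases before to 50 after the start, both strands), TATAAA occurred in 4760 of 33469 promoters and in 3 of the 5 members, Postn, Tnc and Spp1. The core motif of retinoid receptors, AGNTCA, was found 2 times in the Postn entry and 1 time in that of Tnc, and 46.7% of all promoters held it. Pairs of this motif in direct repeat with 1, 2 or 5 bases between them, present in 0.152%, 0.134% and 0.0896% of promoters, were in none of the 5 entries. These matches describe letters in a window and no binding was measured.

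Library totals ranged from 508397 to 1030820 counts. Levels are given as CPM, the count of a gene scaled to library size after TMM adjustment, so 3 counts, taken as the floor, corresponded to 2.89 to 6.29 CPM. The labelled treatment was checked with Cyp26b1, Dhrs3 and Tgm2, the 3 of 8 listed RA response genes in the table, whose summed level was 4.19 to 23.2 CPM in the 9 libraries without RA and 540 to 1155 CPM in the 6 with RA. Of the markers of other cell types, 0 of 6 macrophage genes and 1 of 5 endothelial genes were in the table, the latter at 6.29 CPM or less in every library. The table held 2 of 8 cardiomyocyte markers, with Myh6, Tnni3, Nppa, Nppb, Myl7 and Ryr2 missing, and the remaining pair summed to 909 to 1056 CPM in T14-RA and 626 to 728 CPM in T14+RA. In that pair Actc1 had an RA term of -2.73 (SE 0.184, adjusted p = 2.18e-18), from 249.6 to 33.02 CPM at day 14, and Tnnt2, most of the sum, one of -0.29 (adjusted p = 0.00481, not called). Of 5 osteoblast markers, 1 (Runx2) was present, at 30.0 to 39.0 CPM in T14-RA and 12.6 to 22.2 CPM in T14+RA. Fibroblast markers, 4 of 7 with Pdgfra, Dpt and Tcf21 missing, summed to 20440 to 20650 CPM in T14-RA and 18450 to 23490 CPM in T14+RA. Col1a1 made up nearly all of that sum (RA term 0.06, adjusted p = 0.72), and the other 3 moved apart, as from day 14 without RA to day 14 with RA the mean CPM of Thy1 went from 270.4 to 179.6 (RA term -0.49, adjusted p = 5.26e-05), of Lum from 28.5 to 6.24 (-1.88, adjusted p = 0.000484) and of Dcn from 50.5 to 119.7 (1.08, adjusted p = 0.000229). At day 7 alone Thy1, Lum and Dcn were not called (-0.41, -1.05 and 0.32, adjusted p = 0.031, 0.567 and 0.852). The RA term calls of Thy1, Lum and Dcn were lost in limma on quantile-normalized counts (adjusted p = 0.00569, 0.0981 and 0.117), and that of Lum also in DESeq2 and limma-voom (adjusted p = 0.00408 and 0.0026) and without T7-RA replicate 3, T7+RA replicate 3 or any library of day 14 (adjusted p from 0.00113 to 0.00518). Smooth muscle or myofibroblast markers, 5 of 5, summed to 15330 to 16870 CPM at T0, 3394 to 3489 CPM in T14-RA and 4008 to 4807 CPM in T14+RA. Of these 5 the RA term called Myocd alone, where it called 6.39% of all genes (3.07% lower). Myocd was at -1 (SE 0.188, adjusted p = 3.95e-05), from 51.2 to 22.3 CPM at day 14, while Acta2, the most abundant, was at 0.27 (adjusted p = 0.00595). By that term Acta2 was called without T7-RA replicate 2 (0.32, adjusted p = 0.00099), and Myocd was not in limma on quantile-normalized counts (-0.99, adjusted p = 0.0021). By day, Myocd was not called at day 7 (-0.85, adjusted p = 0.0226), and Acta2 was called at day 14 (0.39, adjusted p = 0.000935). Skeletal muscle genes, 7 of 8, summed to 190 to 222 CPM at T0, 12290 to 12770 CPM in T14-RA and 6036 to 6871 CPM in T14+RA. The RA term called 3 of these 7, all lower, beside 3.07% of all genes called lower. These were Myh3 (-1.33), Tnnt3 (-1.16) and Acta1 (-0.86), which carried the lower sum, while Myog, Mybph, Ckm and Tnnc2 were not called (-0.30 to 0.11). The part of these shifts in the results that follow was not tested. With RNA from whole cultures, fewer cells of a type and less RNA per cell cannot be told apart.

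Periostin (ENSRNOG00000012660, band 2q26) was abundant before and during culture without RA and nearly lost from the cultures with RA. The T0 libraries held 1181, 738 and 573 counts. Without RA there were 635, 643 and 421 at day 7 and 422, 387 and 293 at day 14. With RA the counts were 18, 13 and 8 at day 7 and 8, 7 and 8 at day 14. Every library with RA was thus far under every library without it, at either day. Scaled to depth, Postn measured 1405 ± 215 CPM at T0, 744 ± 127 and 563 ± 106 without RA at days 7 and 14, and 18.9 ± 6.11 and 11.1 ± 3.39 with RA at those days (SD, n = 3 each). The mean with RA was 2.55% of that without at day 7, or 39.3-fold lower, and 1.97% at day 14, or 50.8-fold lower. In the edgeR quasi-likelihood fit, Postn changed with RA by -5.27 on the log2 scale at day 7 (SE 0.207, adjusted p = 2.69e-20) and by -5.73 at day 14 (SE 0.234, adjusted p = 6.04e-20). Over both days the RA term was -5.46 (SE 0.152, adjusted p = 1.18e-30), the log2 change in position 6 from the lowest among all 11574 genes. Postn was compared with the other members with its response known, so these adjusted p values are a description of its size against culture spread and not independent evidence.

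**Figure D1:**
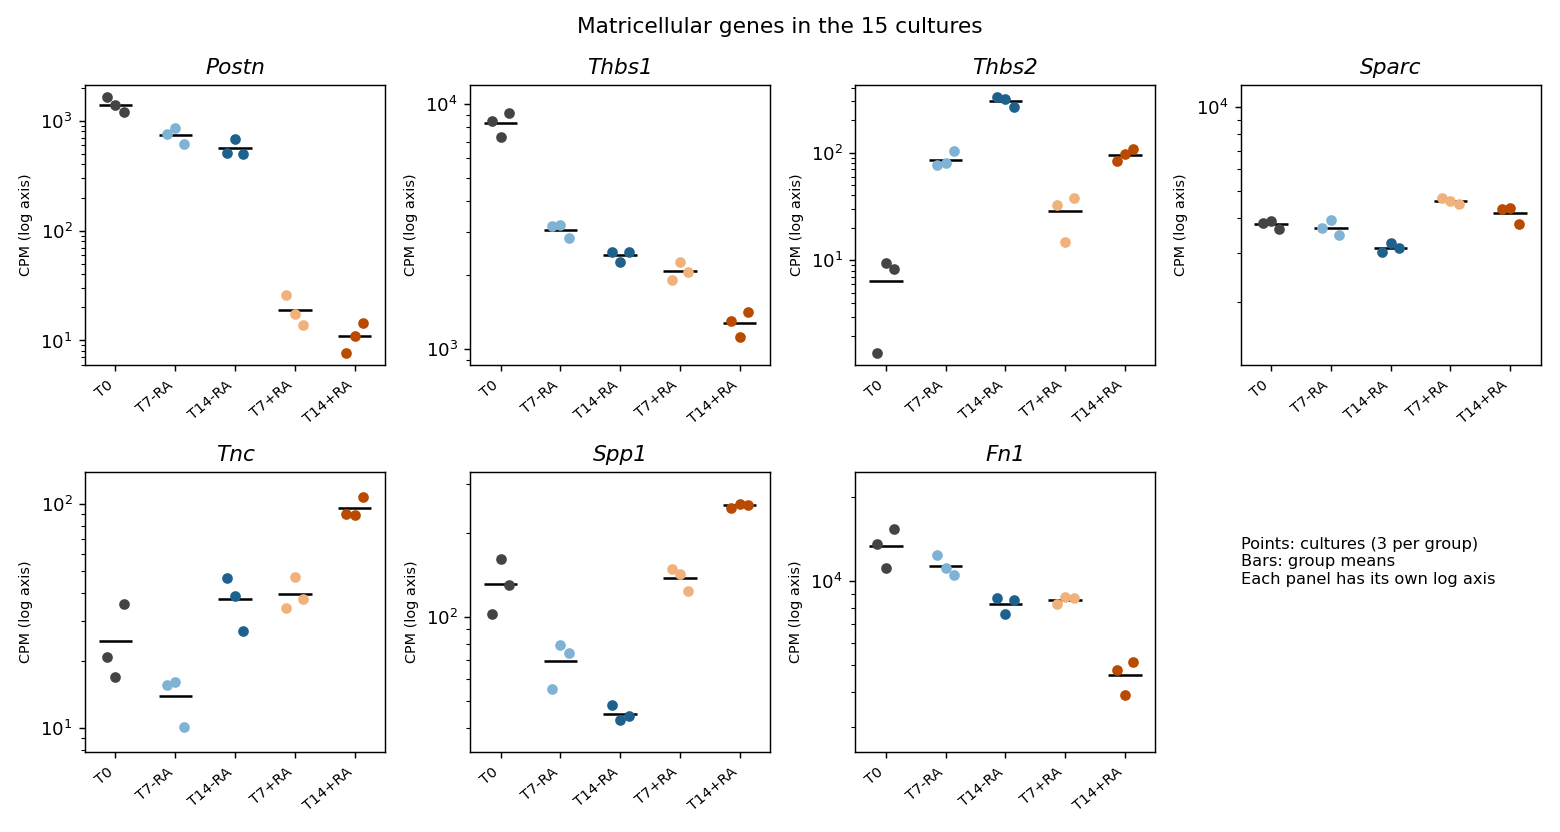
CPM of the 7 genes in the 15 cultures, 1 panel per gene with its own log axis, by group from T0 to T14+RA. Points are cultures and bars are group means. The 6 cultures with RA lie between 7.72 and 25.7 CPM for Postn, under the lowest culture without RA at 496 CPM.

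Postn also declined with time in culture, by far less. Against T0 the T7 term was -0.90 (SE 0.124, adjusted p = 2.6e-07) and the T14 term -1.35 (SE 0.126, adjusted p = 4.77e-12) in the additive fit. T7-RA and T14-RA were both under T0 without overlap, at 53.0% and 40.1% of its mean. T0 differed from the later groups in serum as well as in day, and these cannot be told apart. From day 7 to day 14 the groups overlapped both without RA (log2 change -0.41, SE 0.127, adjusted p = 0.039) and with RA (-0.88, SE 0.432, adjusted p = 0.224), and neither change reached the threshold of 0.001. The RA change at day 14 minus that at day 7 was -0.46 (95% interval -1.38 to 0.45, adjusted p = 0.874), an interval set by the 7 to 18 counts per library with RA. With limma on quantile-normalized counts the T7 and T14 terms of Postn missed the threshold (-0.67 and -1.23, adjusted p = 0.0617 and 0.00122).

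Thbs1 (ENSRNOG00000045829, 3q35), which activates latent TGF-beta, was lower both with time and with RA. Its levels were 8477, 7330 and 9173 CPM at T0 and, without RA, 3168, 3198 and 2825 at day 7 and 2482, 2265 and 2479 at day 14. With RA they were 1919, 2262 and 2070 CPM at day 7 and 1302, 1116 and 1418 at day 14. The 5 groups formed a descending order with no overlap between neighbours, though the closest libraries of T14-RA and T7+RA stood at 2265 and 2262 CPM. Thbs1 fell by 1.88 on the log2 scale at T14 (SE 0.0963, adjusted p = 5.01e-24), and the RA term was -0.73 (SE 0.076, adjusted p = 1.36e-11). With limma on quantile-normalized counts these were -1.07 and -0.75 (adjusted p = 4.69e-05 and 0.000235), and the T7 term of -0.49 and the RA changes of -0.60 at day 7 and -0.90 at day 14 missed the threshold (adjusted p = 0.0233, 0.0215 and 0.00121). Its mean with RA was 68.0% of that without at day 7 and 53.1% at day 14. The second week lowered it with RA (-0.71, SE 0.092, adjusted p = 1.64e-08), and without RA the change was -0.35 (SE 0.0896, adjusted p = 0.00622).

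Fn1 (ENSRNOG00000014288, 9q33) was in position 2 of the table by total counts and moved in the same direction as Thbs1. It measured 13370 ± 2116 CPM at T0, 11340 ± 986 and 8263 ± 586 without RA at days 7 and 14, and 8565 ± 276 and 4602 ± 633 with RA at those days (SD, n = 3). The T0 and T7-RA libraries overlapped, while at each day all libraries with RA were under all libraries without it. The RA term was -0.62 (SE 0.083, adjusted p = 2.47e-07) and the T14 term -0.80 (SE 0.106, adjusted p = 1.06e-07), both called. By day, the RA change of -0.41 at day 7 (SE 0.0936, adjusted p = 0.00228) missed the threshold and that of -0.84 at day 14 (SE 0.0947, adjusted p = 1.59e-09) passed it, and the difference between the days was -0.44 (SE 0.133, adjusted p = 0.14). Leaving out T0 replicate 2, T0 replicate 3 or T14+RA replicate 2 brought the day 7 change past the threshold (adjusted p = 0.000103, 0.000267 and 0.000845), and leaving out T0 replicate 2, T0 replicate 3 or T14+RA replicate 3 brought the difference between days past 0.05 (adjusted p = 0.0251, 0.0436 and 0.0458). On all libraries the day 7 change was called in limma-voom, with library size only and with the replicate number as a block (-0.41, -0.44 and -0.40, adjusted p = 4.6e-05, 0.000515 and 5.28e-05). The difference passed 0.05 in limma-voom and with that block (-0.45 and -0.45, adjusted p = 0.0325 and 0.0156). The second week lowered Fn1 with RA (-0.90, SE 0.0947, adjusted p = 5.76e-10) and without RA (-0.46, SE 0.0936, adjusted p = 0.000545), the latter not without T0 replicate 1, any of the 3 T14-RA libraries, T7-RA replicates 1 or 2, or T7+RA replicate 3 (adjusted p from 0.00102 to 0.0141). Under limma on quantile-normalized counts the RA term of Fn1 was -0.23 (adjusted p = 0.501) and its T14 term -0.11 (adjusted p = 0.751). There its RA change was 0.00 at day 7 and -0.46 at day 14 (adjusted p = 0.328 at day 14). The second week changes there were -0.60 with RA and -0.14 without (adjusted p = 0.183 and 0.851).

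Thbs2 (ENSRNOG00000010529, 1q12), which takes part in clearing the gelatinase Mmp2, went the opposite way to Thbs1 with time. Its T0 libraries held 1, 5 and 4 counts, and without RA there were 64, 59 and 71 at day 7 and 272, 176 and 157 at day 14. With RA there were 23, 11 and 22 counts at day 7 and 86, 62 and 59 at day 14. All 5 groups stood apart except T7-RA and T14+RA, and the libraries with RA were under those without at each day. Thbs2 rose by 3.86 at T7 (SE 0.339, adjusted p = 8.34e-14) and 5.66 at T14 (SE 0.279, adjusted p = 8.95e-25) on the log2 scale, against a T0 level of 6.38 ± 4.36 CPM (SD, n = 3) that rests on 10 counts. Without T0 replicate 1 these terms were 3.26 and 5.07. RA lowered it by a like ratio at both days, to 33.0% at day 7 and 31.8% at day 14 of the mean without RA, with a difference between days of -0.06 (95% interval -0.70 to 0.58, adjusted p = 0.986). Its RA term was -1.67 (SE 0.133, adjusted p = 1.17e-15), which missed the threshold in limma on quantile-normalized counts at the same size (adjusted p = 0.00137). The second week raised it 3.50-fold without RA and 3.37-fold with RA.

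Spp1 (ENSRNOG00000043451, 14p22) was higher with RA, and more so at day 14 than at day 7. Its counts were 74, 86 and 62 at T0. Without RA they were 46, 59 and 51 at day 7 and 40, 24 and 26 at day 14, and with RA 104, 106 and 72 at day 7 and 255, 162 and 139 at day 14. These gave 131 ± 29.7 CPM at T0, 69.4 ± 12.9 and 44.9 ± 2.86 without RA at days 7 and 14, and 138 ± 12.97 and 250.9 ± 4.42 with RA at those days (SD, n = 3). T7+RA overlapped T0, and both groups without RA were under T0 without overlap. RA raised Spp1 by 1.01 at day 7 (SE 0.166, adjusted p = 4.46e-06) and 2.47 at day 14 (SE 0.169, adjusted p = 2.82e-19) on the log2 scale. The difference of 1.46 between the days was itself past its threshold (SE 0.247, adjusted p = 9.8e-05), the only one among the 7 members. With RA the second week raised Spp1 (0.85, SE 0.137, adjusted p = 2.43e-06), and without RA the change was -0.61 (SE 0.206, adjusted p = 0.056). The T7 term of -1.34 (adjusted p = 0.00425) was not called, and was called without T7-RA replicate 2 (-1.56, adjusted p = 8.87e-05) and, on all libraries, in limma-voom (-1.39, adjusted p = 2.28e-05). The T14 term was -0.96 (adjusted p = 0.0218). The additive fit takes 1 RA change for both days, which differed here, so neither term is the change of Spp1 without RA. By group means, T7-RA stood at 52.9% and T14-RA at 34.2% of T0.

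Tnc (ENSRNOG00000058645, 5q24) was a low gene that rose with RA and in the second week. It held 15, 9 and 17 counts at T0, then 13, 12 and 7 at day 7 and 39, 22 and 16 at day 14 without RA, against 24, 35 and 22 and 93, 57 and 59 with RA. The libraries with RA were above those without at each day, and T0 overlapped with T14-RA and with T7+RA. The RA change was 1.49 at day 7 (SE 0.304, adjusted p = 0.000276) and 1.29 at day 14 (SE 0.219, adjusted p = 6.35e-06) on the log2 scale. The call at day 7 was lost without any of the T7-RA libraries or T7+RA replicates 2 or 3 (1.34 to 1.59, adjusted p from 0.00104 to 0.00868), and in DESeq2 and limma-voom (adjusted p = 0.00147 and 0.00172). The second week raised Tnc 2.70-fold without RA (1.44, SE 0.308, adjusted p = 0.000604) and 2.41-fold with RA (1.24, SE 0.217, adjusted p = 1.23e-05), the former not without any of the T7-RA libraries or T14-RA replicates 1 or 2 (adjusted p from 0.00249 to 0.0308). The former was also not called in DESeq2 and limma-voom (adjusted p = 0.00348 and 0.00336). Limma on quantile-normalized counts called neither second week (adjusted p = 0.0134 without RA and 0.0142 with RA). It also called the RA change at neither day (adjusted p = 0.00595 at day 7 and 0.00768 at day 14).

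Sparc (ENSRNOG00000012840, 10q22) was higher with RA by a small margin, and its group means all lay between 3136 and 4609 CPM. It measured 3806 ± 143 CPM at T0, 3702 ± 236 and 3136 ± 114 without RA at days 7 and 14, and 4609 ± 112 and 4167 ± 303 with RA at those days (SD, n = 3). Libraries with RA were above those without at each day, and T0 overlapped with T7-RA and T14+RA. Its mean was 1.25-fold higher with RA at day 7 (log2 change 0.32, SE 0.0811, adjusted p = 0.00555) and 1.33-fold higher at day 14 (0.41, SE 0.0816, adjusted p = 0.000124), with an RA term of 0.36 (SE 0.0659, adjusted p = 2.19e-05). The day 14 call was lost without T14-RA replicates 1 or 3 or T14+RA replicates 1 or 2 (0.38 to 0.41, adjusted p from 0.00209 to 0.00482). The day 7 change was called by DESeq2 and limma-voom (adjusted p = 0.000618 and 3.44e-05) and with the replicate number as a block (adjusted p = 0.000907).

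Set side by side, the members divided into those lower with RA (Postn, Thbs1, Thbs2, Fn1) and those higher (Sparc, Tnc, Spp1). For the RA term 7 of 7 members were called, 3 higher and 4 lower, where 6.39% of all genes were called, 3.33% higher and 3.07% lower. Since the members were chosen with earlier results known, nothing is read from such counts against the shares. At day 7 alone 5 were called, 2 higher and 3 lower, against 3.17% of all genes (1.87% higher, 1.3% lower), and that count was 1 with limma on quantile-normalized counts. At day 14 alone all 7 passed, 3 higher and 4 lower, against 4.81% (2.46% higher, 2.35% lower). The T7 term called 3 members, Thbs2 higher and Postn and Thbs1 lower, against 8.73% of all genes (4.29% higher, 4.44% lower). The T14 term added Fn1 to the lower ones and so called 4, against 17.3% (8.47% higher, 8.85% lower). In the second week without RA 3 members were called, Thbs2 and Tnc higher and Fn1 lower, against 2.95% (1.87% higher, 1.09% lower), and in DESeq2 Thbs2 alone. With RA in the second week 5 were called, Thbs2, Tnc and Spp1 higher and Thbs1 and Fn1 lower, against 4.67% (2.4% higher, 2.26% lower). The difference of the RA change between days was called for 1 member, Spp1, against 0.743% (0.285% higher, 0.458% lower). The median RA term was -0.62 over the members and -0.01 over all genes. Genes with more counts pass such a test at smaller changes, and Fn1, Sparc, Thbs1 and Postn stood at positions 2, 7, 12 and 233 of the table by total counts, so these shares are not a comparison at equal depth. Limma on quantile-normalized counts called 5 members for the RA term, without Thbs2 and Fn1, and called Postn and Spp1 alone at day 14, Thbs2 alone for T7, Thbs1 and Thbs2 for T14, and 0 members in either second week (5 without RA and 7 with RA at an unadjusted p under 0.05).

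**Figure D2:**
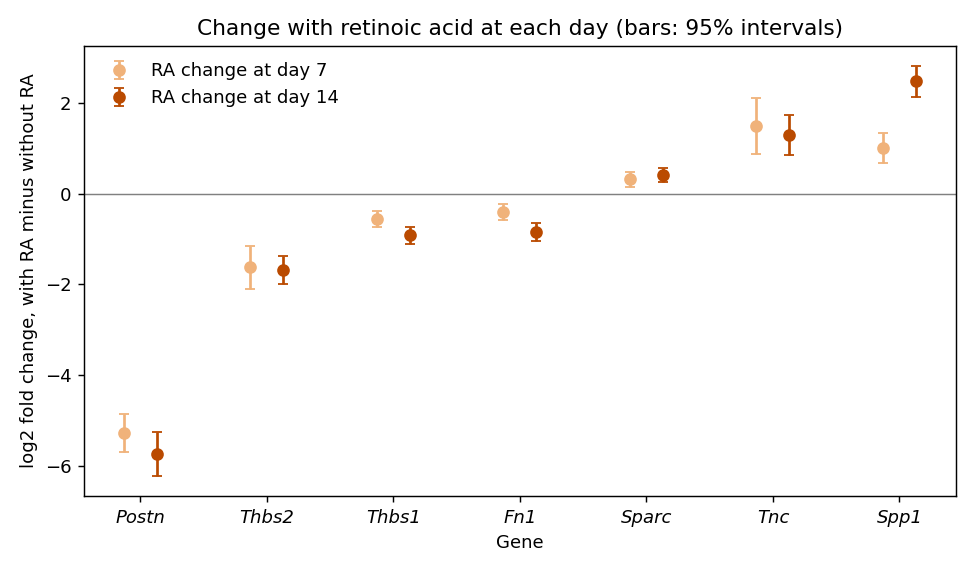
Log2 fold change with RA against without RA at day 7 (pale) and day 14 (dark) for the 7 genes, ordered by the day 14 value, with 95% intervals of the fit. Postn lies at -5.27 and -5.73, and the next lowest gene, Thbs2, at -1.62 and -1.69, while Spp1 shows 1.01 at day 7 and 2.47 at day 14.

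The members together held 2.32% to 2.78% of the counts of a library at T0. Without RA this share was 1.82% to 2.05% at day 7 and 1.45% to 1.53% at day 14, and with RA 1.53% to 1.59% and 0.984% to 1.10%. T14-RA and T7+RA were alike in this share, and the other groups did not overlap. Fn1, Sparc and Thbs1 made up most of it.

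To compare levels between genes, CPM was divided by the deposited gene size in kilobases. At T0 the order was Thbs1 (2302 CPM per kilobase), Sparc (1845), Fn1 (1605), Postn (442), Spp1 (89.4), Tnc (3.38) and Thbs2 (1.09), and of the neighbours only Sparc and Fn1 overlapped between libraries. In T14-RA the order was Sparc (1520), Fn1 (992), Thbs1 (666), Postn (177), Thbs2 (51.3), Spp1 (30.6) and Tnc (5.22), with no overlap between neighbours. In T7+RA the top was Sparc (2234), Fn1 (1028), Thbs1 (576) and Spp1 (94.1), and Postn (5.96), Tnc (5.50) and Thbs2 (4.83) overlapped one another below them. In T14+RA Spp1 (171) followed Sparc (2020), Fn1 (552) and Thbs1 (354), then came Thbs2 (16.3) and Tnc (13.2), which overlapped, and Postn (3.49) was last. Postn thus went from the fourth place at T0 and in both groups without RA to the last place in T14+RA.

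**Figure D3:**
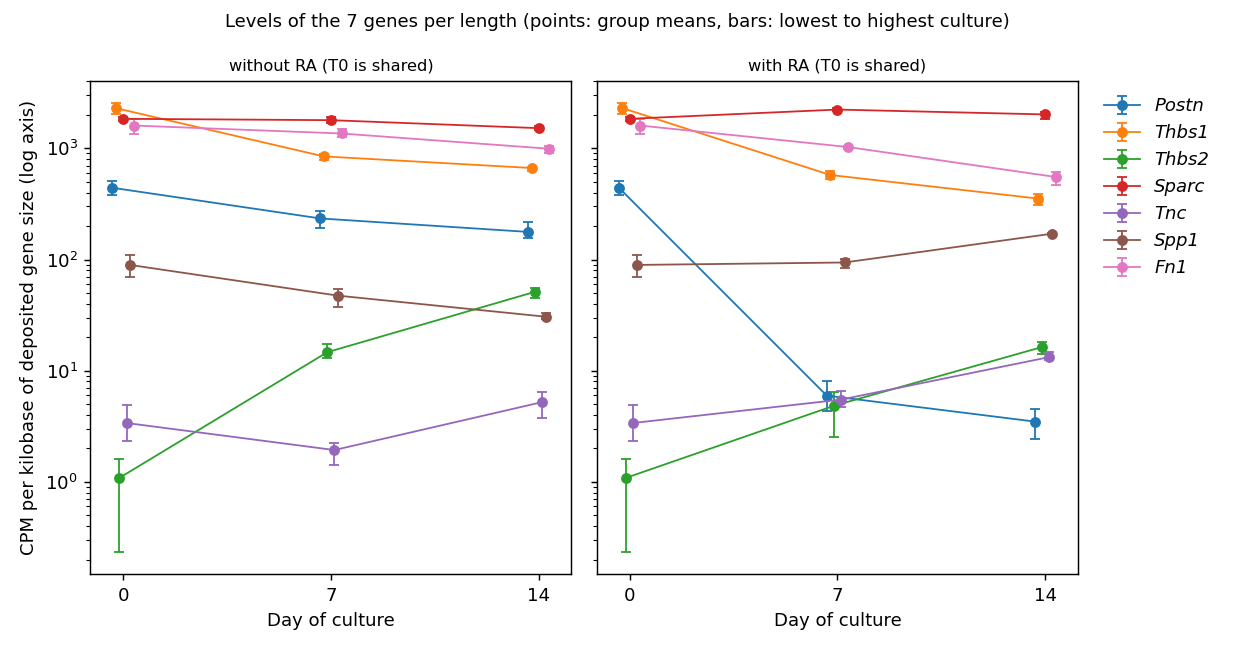
CPM per kilobase of deposited gene size (log axis) of the 7 genes against day of culture, without RA (left) and with RA (right), with the T0 group drawn in both. Points are means of 3 cultures and bars run from the lowest to the highest culture. Postn falls from 442 to 3.49 with RA and to 177 without it.

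Genes whose pattern was most like that of Postn were sought by Pearson correlation of log2 CPM over the 15 libraries among the 7550 genes with a mean of at least 20 CPM. The top 6 were Ccn5 (r = 0.973), the transcription factor Osr1 (0.971), the unnamed gene AABR07021544.1 (0.966), the activin antagonist Fst (0.965), the amino acid transporter Slc38a4 (0.963) and the actin regulator Cobl (0.963). The 3 most opposite were the retinal reductase Dhrs3 (-0.995), the lysosomal cofactor Gm2a (-0.984) and App (-0.982). The libraries of a group are not independent points here, and after subtracting group means the correlations ran from -0.46 (Fst) to 0.45 (Slc38a4), so the values describe the group pattern. Spearman correlation kept 2 of the 6 (Ccn5 and Osr1), and 0 of the 3 opposite genes. A prior count of 0.5 kept 5 of the 6, with Galnt16 in place of Ccn5, so the first place of Ccn5 depends on that setting, and a mean of at least 5 CPM kept 5, with Anxa8 in place of Cobl. Choosing genes by likeness to Postn fixes their direction with RA, and their RA terms, given as a description, ran from -4.45 for Ccn5 to -1.14 for Cobl, with Postn at -5.46. Among the members, r with Postn was 0.80 for Thbs1, 0.78 for Fn1, -0.12 for Thbs2, -0.67 for Spp1, -0.68 for Sparc and -0.76 for Tnc.

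**Figure D4:**
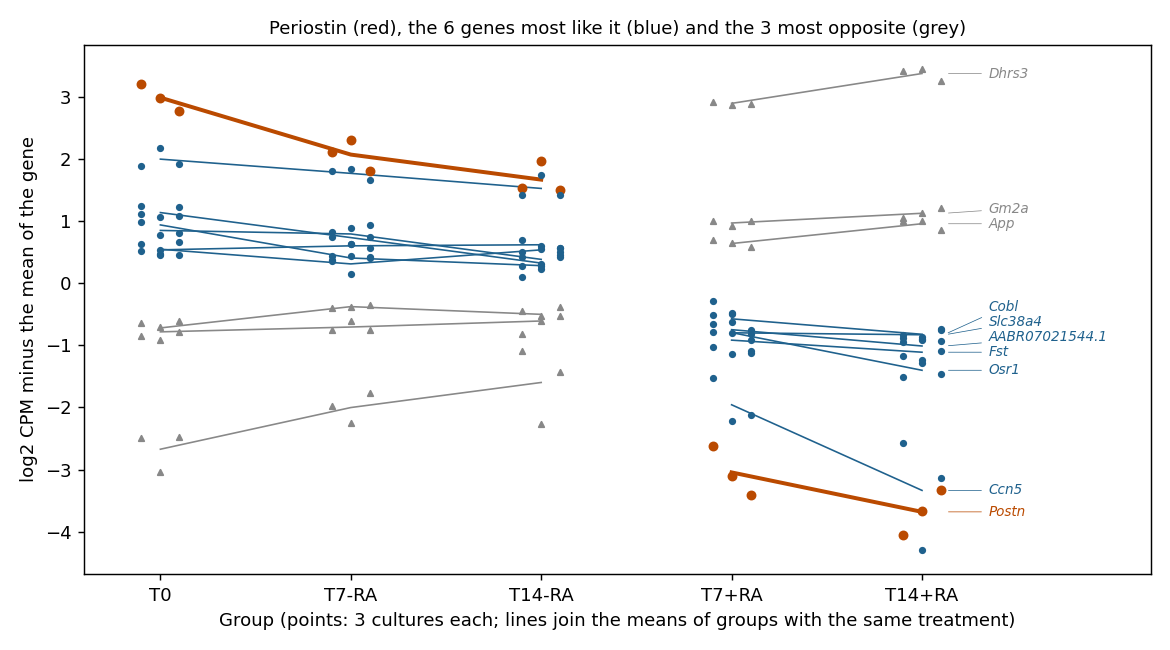
Log2 CPM minus each gene's mean over the 15 cultures for Postn (thick red), the 6 genes most like it (blue circles) and the 3 most opposite (grey triangles), by group. Points are cultures and lines join the means of groups with the same treatment. Ccn5 comes nearest to Postn in size, and Dhrs3 mirrors it.

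Of 23 further matricellular genes, 11 were in the table. The RA term called 4 of them, 3 higher and 1 lower, where it called 6.39% of all genes (3.33% higher, 3.07% lower), with a median of -0.31 over the 11. The 1 that fell was Ccn5, a growth-inhibitory member of the CCN family that lacks the C-terminal domain of its relatives. Ccn5 held 153, 137 and 103 counts at T0, then 166, 152 and 123 at day 7 and 126, 107 and 89 at day 14 without RA, against 12, 7 and 6 and 7, 0 and 2 with RA. Like Postn it had every library with RA under every library without, with an RA term of -4.45 (SE 0.192, adjusted p = 3.21e-27), though its T14 term of -0.53 was not called (adjusted p = 0.00485). Its relatives Ccn1 and Ccn2 rose with RA (0.58, SE 0.0947, adjusted p = 2.41e-06, and 0.58, SE 0.0854, adjusted p = 3.17e-07), as did the periostin paralogue Tgfbi (1.08, SE 0.196, adjusted p = 2.21e-05), which was at 23.6 CPM in T14-RA and 57.1 CPM in T14+RA. These 3 calls were lost in limma on quantile-normalized counts (0.55, 0.51 and 1.04, adjusted p = 0.00613, 0.0155 and 0.00103). By day, Tgfbi was called at day 14 alone (0.80 at day 7 and 1.31 at day 14, adjusted p = 0.086 and 0.000146). Ccn1 (0.61 and 0.55, adjusted p = 0.000191 and 0.00298) and Ccn2 (0.86 and 0.29, adjusted p = 2.22e-10 and 0.0474) were called at day 7 alone. The T14 term called 5 of the 11, all lower, where 17.3% of all genes were called (8.47% higher, 8.85% lower), among them Ccn1 (-2.92), Ccn2 (-1.84), Fstl1 (-1.26) and Smoc1 (-4.45), with a median of -1.26 against 0.05 over all genes.

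**Figure D5:**
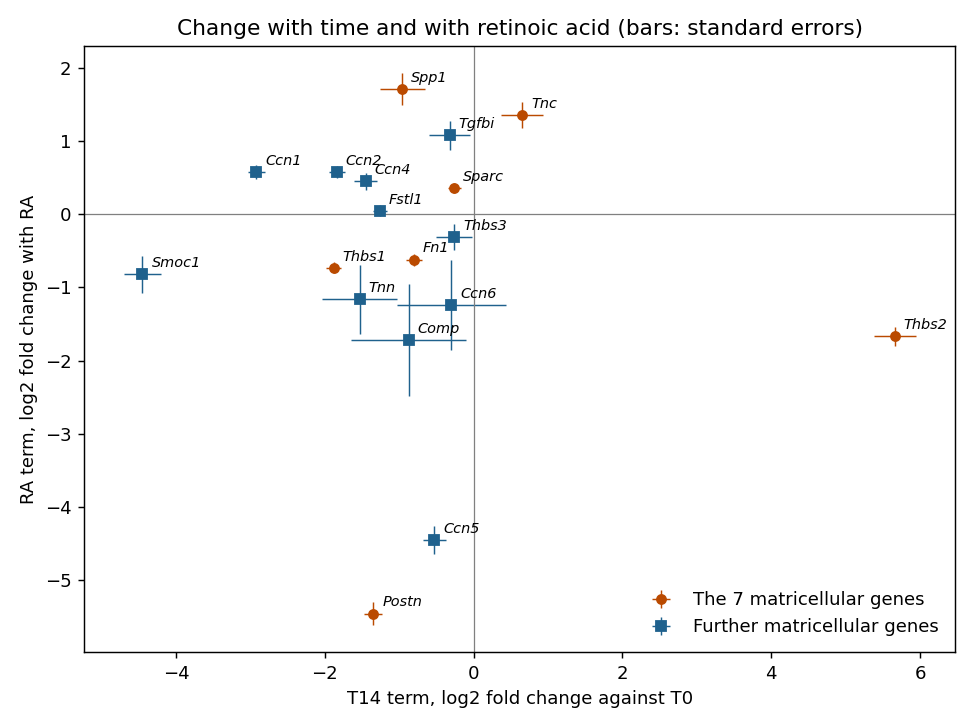
RA term against T14 term (log2 fold changes of the additive fit, bars are standard errors) for the 7 genes (circles) and the 11 further matricellular genes in the table (squares). Postn and Ccn5 lie lowest on the RA axis at -5.46 and -4.45, and Thbs2 lies alone at the right at 5.66.

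Of 18 genes for receptors of the members, 16 were in the table and 3 were called for the RA term, all higher, beside 3.33% of all genes. These were the integrin subunits Itgb5 (0.76, SE 0.0786, adjusted p = 1.07e-11), which pairs with the alpha V subunit to bind periostin, Itgb1 (0.65, SE 0.0672, adjusted p = 1.43e-11) and Itga8 (2.08, SE 0.196, adjusted p = 1.3e-10), a partner of Itgb1 in binding osteopontin and tenascin C. Itga8 was at 40.7 CPM in T14-RA and 150 CPM in T14+RA. The call of Itgb1 was lost in limma on quantile-normalized counts (0.53, adjusted p = 0.00279). Itgb8 had an RA term of -1.41 (adjusted p = 0.00971), which missed the threshold. The T14 term called 8 receptors, all lower, beside 8.85% of all genes, with Sdc1 at -1.53, Itga5, the fibronectin receptor subunit, at -1.43, Cd44 at -0.88 and Itgb5 at -0.87. The last pair missed the threshold in limma on quantile-normalized counts (-0.70 and -0.64, adjusted p = 0.0024 and 0.00198). The median RA term of the 16 was 0.13, and the median T14 term -0.27.

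Of 16 matrix partners and processing enzymes, 15 were in the table, and the RA term called 1 higher (Dcn) and 5 lower, beside 3.33% and 3.07% of all genes. Among the lower ones were the protease Adamts1 (-1.47, SE 0.0963, adjusted p = 3.18e-19), the gelatinase Mmp2 (-1.69, SE 0.178, adjusted p = 5.82e-09), the proteoglycan Bgn (-0.62, SE 0.0695, adjusted p = 1.59e-10) and the collagen chain Col3a1 (-0.48, SE 0.0678, adjusted p = 1.22e-07). The calls of Col3a1, Mmp2 and Dcn were lost in limma on quantile-normalized counts (-0.16, -1.49 and 0.87, adjusted p = 0.551, 0.0202 and 0.117). That of Dcn was also lost in DESeq2 (1.01, adjusted p = 0.0038) and without any T14-RA library or T14+RA replicate 2 (0.88 to 1.11, adjusted p from 0.00184 to 0.00423). At day 7 alone neither Mmp2 nor Dcn was called for RA (-1.16 and 0.32, adjusted p = 0.0138 and 0.852). Mmp2 resembled Thbs2 in its means, at 8.15 ± 11.02 CPM (SD, n = 3) at T0, 46.0 and 270.1 without RA at days 7 and 14, and 20.1 and 76.3 with RA. The T14 term called 13 of the 15, 6 higher and 7 lower, beside 8.47% and 8.85% of all genes, with Mmp2 at 4.71, Col3a1 at 1.38 and Col5a1 at -1.23. That of Mmp2 was 6.92 without T0 replicate 1, 4.39 and 4.27 without T0 replicates 2 and 3, and 5.54 in limma-voom. Dcn, a collagen-binding proteoglycan, had 0 counts in the T0 libraries, and against a floor of 3 counts per library it was at least 9.43-fold higher in T14-RA and at least 22.4-fold higher in T14+RA. Lox and Bmp1, enzymes tied to periostin through collagen cross-linking, had RA terms of -0.08 (adjusted p = 0.571) and -0.21 (adjusted p = 0.133). The 2 were looked up for that role after the values were seen.

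Of 12 genes for TGF-beta ligands, receptors and Smads, known inducers of matricellular genes and their signalling chain, 11 were in the table and 2 were called for the RA term, both higher, beside 3.33% of all genes. Tgfb2 had an RA term of 1.12 over both days (SE 0.0851, adjusted p = 1.25e-16). It rose from 238 to 600.3 CPM at day 7 (log2 change 1.33, SE 0.105, adjusted p = 1.95e-16) and from 212 to 393 CPM at day 14 (0.88, SE 0.111, adjusted p = 3.33e-09). Tgfb3 had an RA term of 0.97 (SE 0.0848, adjusted p = 3.6e-14). It rose from 278 to 468 CPM at day 7 (0.75, SE 0.105, adjusted p = 1.1e-07) and from 238 to 543 CPM at day 14 (1.19, SE 0.108, adjusted p = 3.93e-14). Tgfbr2 at -0.43 (adjusted p = 0.00428) and Eng at 0.33 (adjusted p = 0.0286) missed the threshold. The T14 term called 7 of the 11, 3 higher and 4 lower, beside 8.47% and 8.85% of all genes, among them Tgfbr3 (1.34), Tgfb3 (-1.79), Smad7 (-2.01) and Tgfb2 (-0.64). The RA change of Smad7 differed between days, so its additive T14 term is not its change without RA. Smad7 measured 82.5 CPM at T0, 27.9 in T14-RA and 9.54 in T14+RA. In limma on quantile-normalized counts the T14 terms of Smad7 and Tgfb2 missed the threshold (-2.05 and -0.57, adjusted p = 0.00244 and 0.00589), as did the RA change of Tgfb3 at day 7 (0.72, adjusted p = 0.00323). The median RA term of the 11 was 0.10 and the median T14 term -0.11.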

How the data were processed

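The authors cleaned and trimmed stranded mRNA reads on Galaxy, mapped them with HISAT2 (Rnor_6.0 in the submitters' processing notes) and counted them with featureCounts, and they deposited raw counts per gene and library, not normalized, for genes with more than 20 counts over the 15 libraries. Versions, annotation release and strand setting are not given in the sources used here, so reads of overlapping or antisense genes cannot be separated. The deposited size in bases was read as that of a gene's longest transcript.

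Counts were analysed with edgeR 4.0.16 in R 4.3.3 (TMM, robust quasi-likelihood F test) over all 11574 genes, in the additive model of the study (T7, T14, RA) and a model of 5 group means. The additive model takes 1 RA change for both days. Where that change differed between days, its T7 and T14 terms are not the change without RA. P-values were adjusted by Benjamini-Hochberg over all genes of each comparison and called under 0.001 (difference between days, under 0.05). Log2 CPM used a prior count of 2. Scripts were tested on simulated data. Replicate libraries differed beyond counting error (smallest chi-square per gene 1.07, p = 2.31e-07). This value was 2.493, 2.057 and 3.085 for the T0 pairs, 1.444, 1.498 and 2.036 for the T14+RA pairs and 1.073 to 1.533 in the other groups. The fit shared 1 estimate of a gene's spread over all groups, including T0, the base of the T7 and T14 terms. Floors cover counting error only, and the 95% intervals of log2 changes come from the standard error and degrees of freedom of the fit and so include the spread between cultures. Labels and methods call the 3 cultures of a group replicates without naming separate thaws or passages, so p-values measure the spread between these cultures.

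Groups and replicate numbers came from the sample labels. Named genes were the 7 members, from each of the lists of further matricellular genes, receptors, matrix partners and TGF-beta genes the 4 with the lowest p for the RA and T14 terms, and the 6 genes most like and 3 least like Postn. Single marker genes were named after their values were seen, to show which genes carry a summed level. The members and lists were chosen with earlier results of these data known. Alternatives were a threshold of 0.05 (0.001 for the difference), DESeq2 1.42.0, limma-voom and limma on quantile-normalized log2(count + 1) (limma 3.58.1, the package of the study), other size factors, library size only, 2 filters, a replicate block and each library left out in turn. These alternatives were also run on the named list genes, a step added after the data were seen.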

Additional observations from a re-analysis of the deposited data

Results flagged for a closer look

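In 6 genes, chosen by this result from the members and lists, day 7 and day 14 gave unequal RA changes by the test of the difference in edgeR's quasi-likelihood fit (adjusted over all genes). They were 1 of 7 members, 1 of 11 further matricellular genes, 1 of 16 receptors, 2 of 11 TGF-beta genes and 1 of 7 skeletal muscle genes. The same test called 0.743% of all genes (0.285% higher, 0.458% lower). Chosen in this way, their number is not read as a result about the lists. Spp1 rose by 1.01 at day 7 and 2.47 at day 14, a difference of 1.46 on the log2 scale (SE 0.247, adjusted p = 9.8e-05), and leaving out any library kept the call (adjusted p up to 0.00265). Ccn2, a connective tissue growth factor, had RA changes of 0.86 at day 7 (adjusted p = 2.22e-10) and 0.29 at day 14 (adjusted p = 0.0474, not called at 0.001). Their difference of -0.58 (SE 0.14, adjusted p = 0.0221) missed 0.05 without T7-RA replicate 3, T14-RA replicates 2 or 3, T7+RA replicates 2 or 3, or T14+RA replicates 1 or 3 (adjusted p from 0.054 to 0.115). Itga5, the fibronectin receptor subunit, had values of 0.63 (adjusted p = 1.43e-05) and -0.10 (adjusted p = 0.72, not called), a difference of -0.73 (SE 0.161, adjusted p = 0.00764). Smad3, a TGF-beta signal carrier, had values of 0.73 (adjusted p = 3.6e-05) and -0.12 (adjusted p = 0.68, not called), a difference of -0.85 (SE 0.185, adjusted p = 0.00698). Its call at day 7 was lost without T7-RA replicate 1 or T7+RA replicate 3 (adjusted p = 0.00105 and 0.00133). Smad7, an inhibitor of the same pathway, was called at neither day, with values of 0.57 (adjusted p = 0.296) and -1.51 (adjusted p = 0.00131, and 0.000887 without T0 replicate 2). Its difference of -2.08 (SE 0.457, adjusted p = 0.00721) missed 0.05 without T14-RA replicate 1 or T7+RA replicate 2 (adjusted p = 0.0692 and 0.0888). Mybph, a myosin-binding protein of skeletal muscle from the marker list, was also called at neither day, with values of 0.40 (adjusted p = 0.117) and -0.43 (adjusted p = 0.00401, and 0.000809 without T0 replicate 2). Its difference of -0.84 (SE 0.192, adjusted p = 0.0112) missed 0.05 without T7-RA replicate 2 or T7+RA replicate 3 (adjusted p = 0.0765 and 0.212). All but Spp1 missed 0.05 with limma on quantile-normalized counts (adjusted p from 0.0738 to 0.547), as did the RA changes of Ccn2, Itga5 and Smad3 at day 7 the threshold of 0.001 (adjusted p from 0.00282 to 0.0483).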

How the results depend on the processing

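The RA term, the RA change at day 7 and the RA change at day 14 of Postn kept their direction and call under every alternative in which Postn was tested, at -5.48 to -5.44, -5.29 to -5.26 and -5.76 to -5.60, and at -5.64 to -5.32, -5.54 to -5.11 and -5.93 to -5.45 with 1 library left out. With 1 library left out, the number of members called was 3 to 4 for the T7 term, 4 for the T14 term, 7 for the RA term, 4 to 6 for RA at day 7, 6 to 7 for RA at day 14, 1 to 3 for the second week without RA, 5 for the second week with RA and 1 to 2 for the difference between days. The count for the second week without RA was 1 without T7-RA replicates 1 or 2 or T14-RA replicates 1 or 2, and the difference called 2 members without T0 replicates 2 or 3 or T14+RA replicate 3. At a threshold of 0.05 the second week without RA called 5 members, and in DESeq2 1. Limma-voom called 2 members for the difference. Limma on quantile-normalized counts called 1 member for T7, 2 for T14, 1 for RA at day 7, 2 for RA at day 14 and 0 in the second week without or with RA, where edgeR called 3 and 5 (5 and 7 at an unadjusted p under 0.05 in limma). Requiring 10 counts in every library left 4 members to test, without Postn, Thbs2 and Tnc, and called 1 for T7, 2 for T14, 4 for RA, 2 for RA at day 7, 4 for RA at day 14, 0 for the second week without RA (edgeR, 4 at an unadjusted p under 0.05, 1 of all 7 members in DESeq2) and 3 with RA. Fewer members tested lowers these counts by construction, though for the second week without RA Fn1 was still tested and missed the threshold (-0.44, adjusted p = 0.00147), and for the other shifts the cause was not tested. Some signs turned. The Thbs2 difference was 0.01 in limma-voom and 0.02, 0.09, 0.17 and 0.06 without T7-RA replicate 1, T7+RA replicate 1, T7+RA replicate 3 and T14+RA replicate 1 (-0.40 to 0.17 over the 15 libraries left out), and that of Tnc 0.01 without T14-RA replicate 1 (-0.38 to 0.01). With quantile normalization the Sparc T7 term was 0.12, the Fn1 T7 term 0.25, the Fn1 RA change at day 7 0.00 (-0.41 in edgeR) and the Sparc difference -0.06. The RA term of Tnnc2, 0.11 in edgeR, was -0.02 with quantile normalization, and that of Ckm, 0.00 in edgeR, was -0.06 in DESeq2, -0.11 with quantile normalization, 0.00 with relative log expression factors, -0.02 with library size only and -0.12 to 0.15 with 1 library left out (-0.06 without T7-RA replicate 2, -0.12 and -0.11 without T14-RA replicates 1 and 3, -0.02 without T7+RA replicate 2, -0.05 and -0.09 without T14+RA replicates 2 and 3). With library size only, the Sparc T7 term was 0.04, and the median of all genes moved to 0.13 for T7 and 0.15 for T14, with 64.4% and 59.1% of calls higher in place of 49.1% and 48.9%. Spearman correlation shared 2 of the 6 genes most like Postn. The replicate block called 2 members for the difference (Fn1 added, adjusted p = 0.0156) and 7 for RA at day 7 (Sparc and Fn1 added, adjusted p = 0.000907 and 5.28e-05). Over all genes the block called 44 higher and 74 lower for the difference, where the main fit called 33 and 53. For RA at day 7 it called 253 higher and 176 lower, where the main fit called 216 and 151. The replicate numbers were not taken to pair the cultures, since the labels give them no shared origin. Not every pair correlated above 0.1, but weak pairing could fail that bar too, so it does not decide the question. Deviations from group means correlated at -0.039 to 0.186 (mean 0.032) for the same number and at -0.157 to 0.084 (mean -0.016) for different numbers, and 8 of 15 libraries correlated best with their own number, a hint from the data and not from the design. At 7 to 18 counts per library, depth limits what can be said of Postn between the groups with RA.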
